A study of Mus musculus with 8 samples.

Results

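The light-strand promoter (LSP) of mouse mtDNA drives a single long transcript that carries ND6 and a group of tRNAs. These LSP features were followed by RNA-Seq in mouse embryonic fibroblasts (MEFs), connective tissue cells from the embryo, exposed to RHPS4, a small molecule that binds G-quadruplexes (G4), four-stranded structures of guanine-rich DNA or RNA. The features were chosen by name, as ND6 and the tRNAs TRNQ, TRNA, TRNN, TRNC, TRNY, TRNE and TRNP, and made up 8 of the 24460 genes counted and 8 of the 39 mtDNA features counted. MEFs labelled as wild type received 0 µM (3 libraries), 2 µM (3 libraries) or 10 µM RHPS4 (2 libraries), and no other agent was given for these libraries. The strain, the exposure time of these libraries and whether replicates were separate cultures are not given in the sources used here, so the p-values measure the spread between these libraries, which may be technical. Total RNA was depleted of nuclear rRNA and made into strand-specific libraries.

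Mammalian mtDNA is transcribed from both strands into polycistronic RNAs. The heavy-strand promoters (HSP) give the rRNAs and nearly all mRNAs, whereas the LSP gives the only mRNA of the opposite strand, ND6, together with tRNAs that lie scattered among the HSP genes. Cleavage at the ends of the tRNAs releases the individual RNAs, and most of the remaining LSP RNA is noncoding and short-lived. RNA from the LSP also primes mtDNA replication, and ND6 is a membrane subunit of respiratory complex I.

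The members are given here in the order in which the polymerase meets them. Coordinates are those of the GENCODE annotation of chromosome M in GRCm38, and all 8 lie on its minus strand. Distance was counted from the outer end of TRNP, the member nearest the LSP, because the position of the promoter was not in the annotation. TRNP (15356 to 15422) is the tRNA for proline. TRNE (14071 to 14139), the tRNA for glutamate, begins 1283 bases further on. ND6 (13552 to 14070) is 519 bases long, begins 1352 bases from the outer end of TRNP and overlaps the last 14 bases of ND5 on the opposite strand. After a stretch of 8225 bases from ND6 come TRNY for tyrosine (5260 to 5326), TRNC for cysteine (5192 to 5257), TRNN for asparagine (5089 to 5159) and TRNA for alanine (5018 to 5086), which form a cluster that begins 10096 bases from the outer end of TRNP. TRNQ for glutamine (3772 to 3842) is the last, at 11580 bases, and shares 3 bases with TRNI on the opposite strand. The LSP also encodes TRNS1, a tRNA for serine that is not a member, which had at most 1 count in any library.

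The 7 tRNA sequences are shown because each is about as long as a single read, which bears on how well it can be counted. They are written 5′ to 3′ in DNA letters from the GENCODE transcripts, with the anticodon in capitals.
TRNP: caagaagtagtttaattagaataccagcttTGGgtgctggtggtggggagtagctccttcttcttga
TRNE: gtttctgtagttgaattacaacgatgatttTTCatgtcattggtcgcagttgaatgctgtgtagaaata
TRNY: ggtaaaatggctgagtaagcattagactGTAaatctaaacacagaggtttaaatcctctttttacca
TRNC: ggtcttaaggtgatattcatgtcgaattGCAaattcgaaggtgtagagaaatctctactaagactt
TRNN: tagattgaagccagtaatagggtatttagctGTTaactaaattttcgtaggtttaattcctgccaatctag
TRNA: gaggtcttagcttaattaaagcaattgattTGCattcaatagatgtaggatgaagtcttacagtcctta
TRNQ: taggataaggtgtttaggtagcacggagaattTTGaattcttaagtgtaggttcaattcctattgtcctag
Their lengths run from 66 to 71 bases. The paper also reported that sequence counts of tRNAs were low. Counts over a tRNA cannot tell the mature tRNA from longer unprocessed RNA over the same bases. A fall of a tRNA below is thus a fall of reads over its bases.

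The LSP transcript has the base composition of the guanine-rich strand. ND6 holds 28.1% G and 5.97% C, whereas the 12 HSP mRNAs hold 5.88% to 16.1% G and 22.1% to 30.0% C. ND6 has 12 runs of 3 or more G, or 23.1 per kb, against at most 5.22 per kb in an HSP mRNA. Its longest runs lie in the following windows (bases 166 to 201 and 267 to 301 of ND6), in which runs of 3 or more G are in capitals.
ND6 window 1: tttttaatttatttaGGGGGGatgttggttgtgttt
ND6 window 2: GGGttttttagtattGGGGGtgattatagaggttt
A simple G4 pattern, 4 runs of at least 2 G separated by 1 to 7 bases, was found in the transcripts of ND6 (2 places), TRNP and TRNQ, and in none of the other 34 annotated mtDNA transcripts, so that 8.11% of the 37 held it. On the strand opposite to the transcript it was found in 8 of the 12 HSP mRNAs and in none of the 8 LSP members. A match describes the letters only.

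Library totals lay between 10455965 and 26688121 counts. In CPM (counts scaled to library size), 3 counts in 1 library corresponded to 0.112 to 0.287 by the unscaled totals. The floor used below was 3 counts over the whole 10 µM group, or 0.0991 CPM by the scaled library sizes used below. That floor leaves out counting error in the 0 µM group, and the intervals below cover counting error only. The share of a library taken by mtDNA features was 13.2% to 14.4% without RHPS4, 7.40% to 8.26% with 2 µM and 5.33% to 6.32% with 10 µM. Fibroblast markers summed to between 7563 and 9216 CPM in the 8 libraries and markers of other cell types to between 8.41 and 12.9 CPM. The libraries keep the strand, but the strand setting of the counting is not given in the sources used here, so reads from an LSP feature and from HSP RNA over the same bases cannot be told apart. No stretch of 50 bases of any member occurred in a nuclear transcript of the annotation. Nuclear DNA outside these transcripts was not searched, so whether reads of the members had a second place to map there was not tested. TRND, TRNK and ATP8 on the opposite strand shared no such stretch either. TRND and TRNK had 0 counts in every library and ATP8 had 0 to 6. In bulk samples, fewer mtDNA copies, a smaller share of cells holding the RNA and less RNA per cell cannot be told apart. CPM are scaled to library size, so the total number of cells does not enter.

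The question was how ND6 and the LSP tRNAs responded to each dose. ND6 fell at both doses, 1.98-fold at 2 µM and 4.00-fold at 10 µM. At 10 µM TRNP and TRNA also fell, whereas TRNE and TRNQ did not pass the test at either dose. TRNN, TRNC and TRNY did not pass the filter on low counts and had no count at all in either 10 µM library. A member was tested where it passed edgeR's filter on low counts, which 5 of the 8 did (ND6, TRNP, TRNE, TRNA and TRNQ), and was called where its fold change exceeded 1.5 and its adjusted p in edgeR's quasi-likelihood test, over 14296 genes, was below 0.01. On this rule 1 of the 5 tested members was lower at 2 µM than at 0 µM (ND6), where 0.378% of all tested genes were called lower and 0.497% in either direction. At 10 µM 3 of the 5 were lower than at 0 µM (ND6, TRNP and TRNA) against 1.14% of all tested genes (3.09% in either direction), and from 2 to 10 µM 2 of the 5 (ND6 and TRNP) against 1.59% (5.51% in either direction). None was called higher, and the fitted change was negative for all 5 in each comparison. The 5 that passed the filter are not all members, and low features pass more easily where 1 group is high, so these counts describe only the tested members. TRNA is such a case, since it passed through the 0 µM group, where it is high. With at least 10 counts required in every library TRNA drops out and 2 members (ND6 and TRNP) were called at 10 µM against 0 µM.

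**Figure D1:**
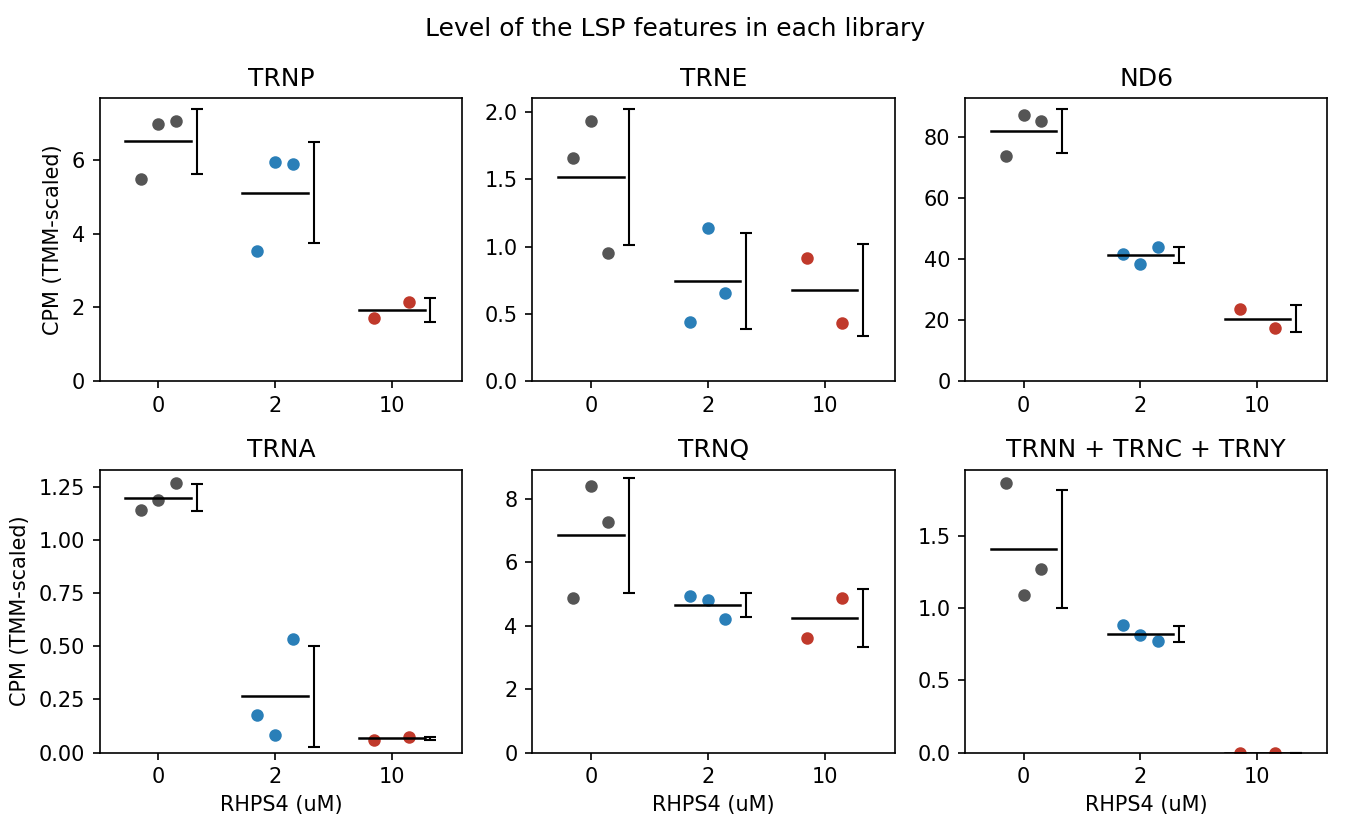
Level of the members in each library, in TMM-scaled CPM (y axis, starting at 0, a separate scale for each panel) against RHPS4 in µM (x axis). Points are libraries, lines are group means and bars are the SD (n = 3, 3 and 2), and the untested TRNN, TRNC and TRNY are summed. The ND6 groups do not overlap, with all libraries above 73 CPM at 0 µM and below 24 CPM at 10 µM, whereas the TRNQ panel shows overlapping groups.

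ND6, the complex I subunit mRNA, stood at 73.8, 87.0 and 85.1 CPM in the 0 µM libraries, from 711, 1756 and 2143 counts. At 2 µM it stood at 41.8, 38.5 and 43.8 CPM, and at 10 µM at 23.6 and 17.3 CPM. The groups did not overlap, and every library of a dose lay below the lowest library of the next lower dose. The group means were 82.0 ± 7.14 (SD, n = 3), 41.4 ± 2.69 (SD, n = 3) and 20.5 ± 4.41 CPM (SD, n = 2). In the edgeR test the log2 fold change was -0.99 (SE 0.109, adjusted p = 0.00141) from 0 to 2 µM, -2.00 (SE 0.132, adjusted p = 6.66e-06) from 0 to 10 µM and -1.01 (SE 0.132, adjusted p = 0.000456) from 2 to 10 µM. The call at 2 µM was lost without the second 0 µM library (log2 fold change -0.94, edgeR adjusted p = 0.0117) and without the second 2 µM library (-0.94, edgeR adjusted p = 0.0154). Both calls at 10 µM held in each alternative tried.

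Per length, ND6 was the seventh of the 13 mtDNA mRNAs at each dose. It had 158 CPM per kb at 0 µM, 79.7 at 2 µM and 39.4 at 10 µM. COX1, the catalytic subunit of complex IV, had 23.6 times the ND6 level per kb at 0 µM and ND5, by these counts the least abundant mRNA above it, 5.03 times. ND4 had 5.14 times. COX1 and ND4 share 51.1% and 62.2% of their 50-base stretches with nuclear transcripts, so their levels may be undercounted. Of the 6 mRNAs below ND6, 5 (COX2, ATP6, COX3, ND3 and ND4L) shared over 97% of their 50-base stretches with nuclear transcripts, which unique mapping leaves uncounted, and the sixth was ATP8, so that the rank holds only for these counts. The gap between ND6 and the HSP mRNAs was not the same at each dose. CYTB, the cytochrome b mRNA next to TRNE, was 13.6, 6.94 and 14.4 times ND6 per kb at 0, 2 and 10 µM, whereas ND1, another complex I subunit encoded near the start of the HSP transcript, was 14.7, 20.8 and 15.9 times ND6.

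The ratio of ND6 to another mRNA within a library does not depend on how libraries were scaled. Relative to ND5, the complex I mRNA on the opposite strand beside it, ND6 had log2 ratios of counts of -3.72, -4.26 and -4.32 at 0 µM, of which the first library stands apart. At 2 µM the mean ratio was 1.01 higher (-3.10 ± 0.253 against -4.10 ± 0.334, SD, n = 3 and 3), with all 2 µM libraries above all 0 µM libraries. Relative to CYTB it was 0.98 higher (-3.92 ± 0.194 against -4.90 ± 0.0520, SD, n = 3 and 3), again without overlap. Relative to ND1 it was instead 0.48 lower (-5.25 ± 0.187 against -4.76 ± 0.114, SD, n = 3 and 3), without overlap. ND1 itself was not called lower at 2 µM (edgeR log2 fold change -0.49, adjusted p = 0.0877). Each of these ratios had a two-sided exact permutation p = 0.1, the smallest that 3 libraries against 3 allow, and an adjusted p = 0.28 (exact permutation tests, Benjamini-Hochberg over the 14 ratio tests made).

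At 10 µM the ratios lay close to those at 0 µM. The ND6 to ND5 ratio differed by 0.05 (exact permutation p = 1) and the ND6 to ND1 ratio was 0.10 lower (exact permutation p = 0.4), both with overlapping groups. The ND6 to CYTB ratio was 0.09 lower (-4.99 ± 0.0342 against -4.90 ± 0.0520, SD, n = 2 and 3), without overlap and with p = 0.2 in the exact permutation test, the smallest that 2 libraries against 3 allow. From 2 to 10 µM, ND6 fell by a further 1.01 on the log2 scale, whereas the edgeR log2 fold changes of ND5 and CYTB were -0.09 (adjusted p = 0.828) and 0.04 (adjusted p = 0.887).

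**Figure D2:**
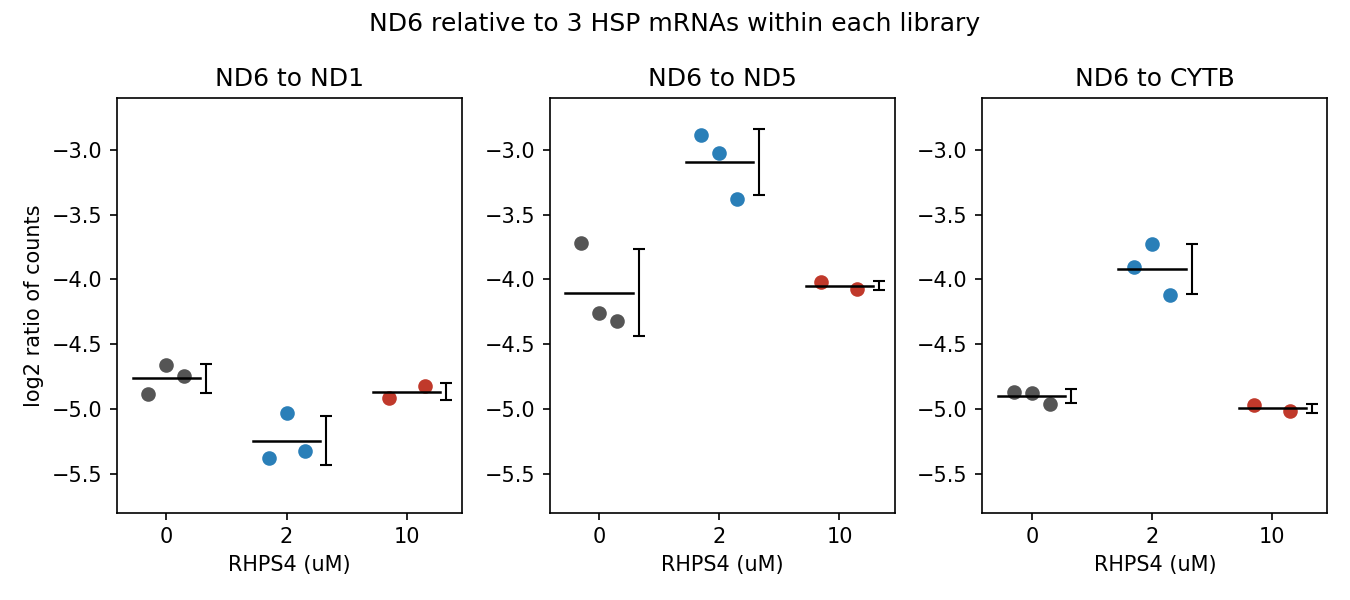
Log2 ratio of ND6 counts to ND1, ND5 and CYTB counts (y axis) in each library against RHPS4 in µM (x axis). Points are libraries, lines are means and bars are the SD (n = 3, 3 and 2). At 2 µM all ratios to ND5 and CYTB lie above, and all ratios to ND1 below, those at 0 µM, and at 10 µM the means return to within 0.11 of the 0 µM means.

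TRNP, the proline tRNA and the member nearest the promoter, stood at 5.50, 6.99 and 7.07 CPM at 0 µM, at 3.53, 5.95 and 5.88 CPM at 2 µM and at 1.71 and 2.16 CPM at 10 µM. The 0 and 2 µM libraries overlapped, whereas both 10 µM libraries lay below all others. The edgeR log2 fold change was -0.36 (SE 0.187, adjusted p = 0.297) at 2 µM and -1.79 (SE 0.250, adjusted p = 0.000991) at 10 µM against 0 µM, and -1.43 (SE 0.264, adjusted p = 0.00322) from 2 to 10 µM. The call against 0 µM was lost without the first 10 µM library (-1.65, edgeR adjusted p = 0.0143). The call from 2 to 10 µM was lost without the second 2 µM library (edgeR adjusted p = 0.0150), the third 2 µM library (0.0119), the first 10 µM library (0.0288) and the second 10 µM library (0.0139), with log2 fold changes between -1.64 and -1.30. Within a library, the log2 ratio of TRNP to ND6 was 0.61 higher at 2 µM than at 0 µM (exact permutation p = 0.1, without overlap). At 10 µM it was 0.28 higher with overlapping groups (exact permutation p = 0.8), or -0.11 without the second 10 µM library and 0.67 without the first.

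TRNE, the glutamate tRNA that lies directly ahead of ND6 in the transcript, had few counts, from 5 to 39 per library. It stood at 1.66, 1.93 and 0.953 CPM at 0 µM, at 0.441, 1.14 and 0.654 CPM at 2 µM and at 0.916 and 0.432 CPM at 10 µM. Both libraries at 10 µM were lower than any at 0 µM, and they overlapped with the 2 µM libraries. Its edgeR log2 fold changes were -0.97 (SE 0.410, adjusted p = 0.205) at 2 µM and -1.07 (SE 0.460, adjusted p = 0.149) at 10 µM. Neither change passed the test, and the 0 and 2 µM libraries overlapped.

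TRNQ, the glutamine tRNA at the far end of the order, stood at 4.88, 8.42 and 7.26 CPM at 0 µM, at 4.94, 4.81 and 4.22 CPM at 2 µM and at 3.60 and 4.89 CPM at 10 µM. The groups overlapped, and the first 0 µM library lay at the level of the treated ones. The edgeR log2 fold change was -0.62 (SE 0.193, adjusted p = 0.0973) at 2 µM and -0.75 (SE 0.218, adjusted p = 0.0413) at 10 µM. Without the first 0 µM library the change at 10 µM was -0.92 and was called (edgeR adjusted p = 0.00459). From 2 to 10 µM it was -0.13 (SE 0.236, edgeR adjusted p = 0.730), and the log2 ratio of TRNQ to ND6 within a library was 1.35 higher at 10 µM than at 0 µM (-2.26 ± 0.623 against -3.61 ± 0.275, SD, n = 2 and 3, exact permutation p = 0.2, without overlap). Without the first 10 µM library that difference was 1.79 and without the second 0.91. At 2 µM it was 0.46, with overlapping groups (exact permutation p = 0.2). TRNM, the methionine tRNA encoded next to it on the opposite strand, was measured at 5.61, 6.19 and 6.35 CPM at 0 µM, at 4.32, 3.10 and 2.67 CPM at 2 µM and at 4.33 and 5.18 CPM at 10 µM. Its edgeR log2 fold change was -0.89 (adjusted p = 0.0222) at 2 µM and -0.37 (adjusted p = 0.207) at 10 µM, and neither was called. TRNI, which shares 3 bases with TRNQ on the opposite strand, fell at 10 µM (edgeR log2 fold change -2.46, adjusted p = 0.00429).

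TRNA, the alanine tRNA, stood at 1.14, 1.19 and 1.27 CPM at 0 µM, from 11, 24 and 32 counts. It had 2, 1 and 9 counts at 2 µM and 1 count in each 10 µM library, so that both treated groups lay below the untreated one. By the summed counts, 2 against 67, it was 18.4-fold lower at 10 µM than at 0 µM, with a 95% counting interval of 4.91 to 155 (Clopper-Pearson). At 2 µM it was 4.10-fold lower, with an interval of 2.20 to 8.34, and in the fit without the third 2 µM library it was 9.02-fold lower. In the edgeR test the log2 fold change was -2.01 (SE 0.430, adjusted p = 0.0297) at 2 µM and -4.05 (SE 0.664, adjusted p = 0.00282) at 10 µM. TRNA passed the filter through the 0 µM group, where it is high, so these p-values are not independent support for a fall. The call at 10 µM was lost with the replicate block (edgeR adjusted p = 0.0151) and without the second 0 µM library (0.0107), the third 0 µM library (0.0108), the first 10 µM library (0.0274) or the second 10 µM library (0.0309), with log2 fold changes between -4.17 and -3.83. DESeq2 gave it no adjusted p.

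The other tRNAs of the same cluster did not pass the filter and are described by their counts. With no filter, over 23612 genes, edgeR called TRNC lower at 10 µM than at 0 µM (adjusted p = 0.00243) and TRNY lower at 10 µM than at 2 µM (adjusted p = 0.00725). TRNY against 0 µM had an adjusted p = 0.0105 and TRNC against 2 µM an adjusted p = 0.0218 in that edgeR fit, and TRNN was called in neither comparison (adjusted p = 0.114 and 0.377). With 0 counts in both 10 µM libraries, these tRNAs were seen only in the groups where they are higher. The p-values without the filter are therefore a description and not support for a fall. TRNC, the cysteine tRNA, had 11, 10 and 15 counts at 0 µM, 4 in each 2 µM library and 0 in both 10 µM libraries. With the floor of 3 counts put in for the 10 µM group, it was 6.61-fold lower at 10 µM than at 0 µM. This is a lower bound set by the floor and not an estimate, and it leaves out counting error at 0 µM. TRNY, the tyrosine tRNA and the first of the cluster, had 2, 7 and 15 counts at 0 µM, 6, 4 and 8 at 2 µM and 0 in both 10 µM libraries. By the same floor the bound for TRNY was 4.40-fold lower at 10 µM than at 0 µM. Its summed counts at 2 µM relative to 0 µM gave a ratio of 1.02 with a 95% counting interval of 0.522 to 1.96. TRNN, the asparagine tRNA, had 5, 5 and 2 counts at 0 µM, 0, 2 and 1 at 2 µM and 0 in both 10 µM libraries. By that floor the bound for TRNN was 2.20-fold lower at 10 µM than at 0 µM, from only 12 counts at 0 µM. Its summed counts at 2 µM relative to 0 µM gave a ratio of 0.340 with an interval of 0.0616 to 1.26, so that no difference was detectable at that dose.

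Pooled, the cluster of TRNY, TRNC, TRNN and TRNA had 29, 46 and 64 counts at 0 µM, 12, 11 and 22 at 2 µM and 1 in each 10 µM library. TRNA held 67 of the 139 pooled counts at 0 µM, and TRNY alone had a ratio of 1.02 at 2 µM. The pool thus does not show that its members fell alike at 2 µM. The 3 groups did not overlap in CPM, and the pooled level was 2.27-fold lower at 2 µM (95% counting interval 1.61 to 3.25) and 38.3-fold lower at 10 µM (10.4 to 319), an interval whose upper end is set by 2 counts. OL, the feature for the replication origin of the other strand that lies between TRNC and TRNN, behaved otherwise. It stood at 33.2, 29.5 and 34.9 CPM at 0 µM, at 37.2, 38.1 and 36.3 CPM at 2 µM and at 8.98 and 10.4 CPM at 10 µM, with edgeR log2 fold changes of 0.19 (adjusted p = 0.240) and -1.75 (adjusted p = 6.09e-06). TRNW, the tryptophan tRNA on the opposite strand next to TRNA, fell at both doses (edgeR log2 fold changes -0.94, adjusted p = 0.00229, and -2.50, adjusted p = 5.34e-06).

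All 7 LSP tRNAs pooled gave 17.5 ± 2.30 CPM (SD, n = 3) at 0 µM, 11.6 ± 1.47 CPM (SD, n = 3) at 2 µM and 6.92 ± 0.895 CPM (SD, n = 2) at 10 µM. TRNQ held 42.7% and TRNP 38.4% of these counts over the 8 libraries, so that the pool mainly reports those tRNAs. The log2 ratio of the group means was -0.59 at 2 µM and -1.34 at 10 µM, or -1.99 at 10 µM when TRNQ was left out. The 14 HSP tRNAs pooled in the same way gave -1.06 and -1.83. The most counted of these at 0 µM were TRNW (809 counts), TRNT (513) and TRNL1 (474). Only 7 of the 14 passed the filter, and TRND and TRNK had 0 counts in every library, so this pool too mainly reports a few tRNAs. No test was made on either pool.

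**Figure D3:**
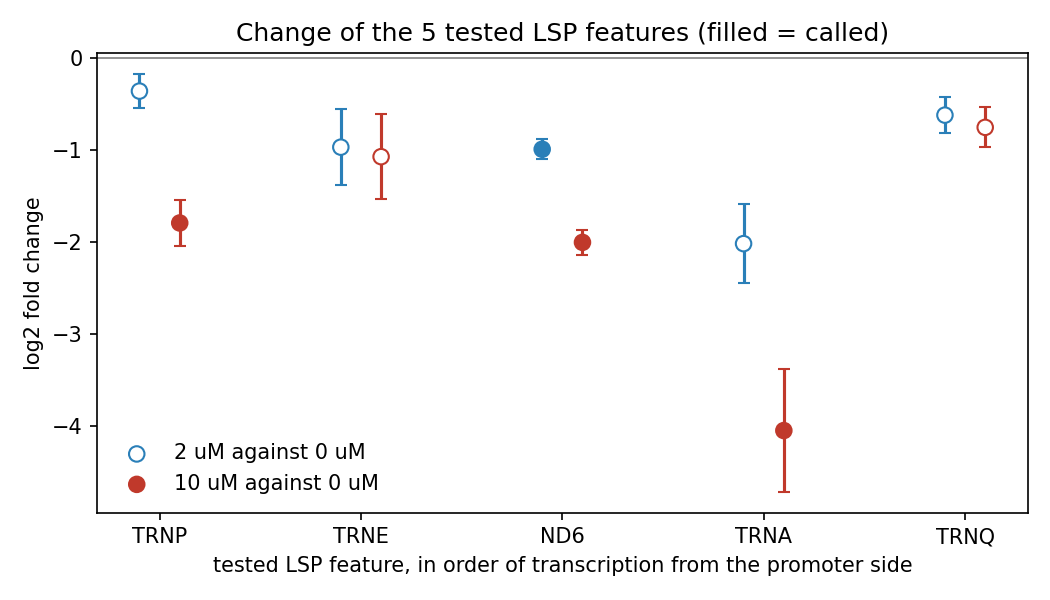
Log2 fold change against 0 µM (y axis) with its SE for the 5 tested members at 2 and 10 µM RHPS4, ordered from the promoter side (x axis, spaced evenly and not by distance). Filled points passed the rule for a call, and TRNA passed the filter on low counts only through the 0 µM group, where it is high. The order shows no steady trend, since TRNQ at the far end changed by -0.62 and -0.75 and TRNA before it by -2.01 and -4.05.

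In order from the promoter, the log2 fold changes at 2 µM were -0.36 for TRNP, -0.97 for TRNE, -0.99 for ND6, -2.01 for TRNA and -0.62 for TRNQ. At 10 µM they were -1.79, -1.07, -2.00, -4.05 and -0.75. Only ND6 passed the test at 2 µM, TRNE and ND6 differed by less than the SE of TRNE, and the untested TRNY, between ND6 and TRNA in the order, had a ratio of 1.02, so that no order along the transcript was read from these values. With 5 points that differ in depth and length, no correlation was computed. The D-LOOP feature, which covers the control region where LSP transcription starts and whose strand is not given, had edgeR log2 fold changes of 0.20 (adjusted p = 0.216) at 2 µM and -1.29 (adjusted p = 2.15e-05) at 10 µM.

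The 19 tested HSP features had median log2 fold changes of -1.20 at 2 µM and -1.91 at 10 µM, and all tested genes had medians of -0.01 and 0.02. Among the HSP features 5 of 19 were lower at 2 µM and 13 of 19 at 10 µM, and none was higher. At 2 µM the lower ones were TRNW, ND4, ND5, CYTB and TRNT, the last of which lies next to TRNP on the opposite strand. TRNT stood at 8.10, 8.62 and 10.4 CPM at 0 µM and at 1.85, 2.20 and 2.91 CPM at 2 µM (edgeR log2 fold change -1.94, adjusted p = 0.00163). The 19 include COX2, ATP6, COX3 and ND3, which share 98.0% to 100% of their 50-base stretches with nuclear transcripts. These had 1 to 46 counts per library, and COX2 is among the 13 lower at 10 µM. Low features pass the filter more easily where the 0 µM group is high, and ND3, ATP6, TRNR and TRNV were highest there (means 0.842 to 1.37 CPM). The HSP medians may therefore lean low, and they were not computed without these features.

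Nuclear genes for the machinery that makes and processes the LSP transcript were set beside these values. Of all tested genes 0.497%, 3.09% and 5.51% were called at 2 µM, at 10 µM and from 2 to 10 µM, so that lists of this size would hold few calls or none at those shares. Of 9 genes for mitochondrial transcription, 0 were called in any of the comparisons, with log2 fold changes between -0.29 and 0.48 at 10 µM against 0 µM. They included Polrmt, the mitochondrial RNA polymerase (edgeR log2 fold change -0.02, adjusted p = 0.899), Tfam, which packages mtDNA and opens its promoters (0.06, adjusted p = 0.747), Tfb2m, a promoter-melting factor (-0.29, adjusted p = 0.262), and Tefm, an elongation factor (0.48, adjusted p = 0.0458). Of 20 genes for processing, folding and decay of mitochondrial RNA, 0 were called at either dose against 0 µM and 2 were lower at 10 than at 2 µM. These were Fastkd3 (edgeR log2 fold change -0.73, adjusted p = 0.00472) and Fastkd5 (-0.69, adjusted p = 0.000728), members of the FASTK family of mitochondrial RNA-binding proteins. At 10 µM against 0 µM Fastkd5 had -0.47 (edgeR adjusted p = 0.00979) and missed a call only by the fold limit (1.38-fold). In that comparison 6 of the 20 had a negative log2 fold change.

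Grsf1, which binds G-rich mitochondrial RNA, had an edgeR log2 fold change of 0.03 (adjusted p = 0.793) at 10 µM against 0 µM. Fastk, whose mitochondrial form is needed for ND6 mRNA, had 0.02 (adjusted p = 0.900). Of the decay enzymes, Supv3l1 had 0.26 (edgeR adjusted p = 0.0724) and Pnpt1 0.34 (adjusted p = 0.0270). Of the genes for the processing of tRNA ends, Trmt10c had -0.04 (edgeR adjusted p = 0.862) and Elac2 0.03 (adjusted p = 0.868). Of 16 enzymes that charge or modify the LSP tRNAs, 0 were called in any comparison, with values between -0.23 and 0.46 at 10 µM, and Qrsl1, which helps to make the glutamine-charged tRNA, had 0.12 (edgeR adjusted p = 0.508). At an unadjusted p under 0.05 in edgeR, 2 µM gave 0, 10 µM gave 2 and the step from 2 to 10 µM gave 2 of the transcription genes, and in the same order there were 10, 6 and 6 of the processing genes and 6, 3 and 6 of the charging and modifying enzymes, where 21.3%, 29.4% and 36.5% of all tested genes passed. DESeq2 called 0 of the 3 lists at either dose against 0 µM. The medians of the lists were 0.11, 0.19 and 0.16 at 2 µM, beside -0.01 for all tested genes, and 0.06, 0.05 and 0.11 at 10 µM, beside 0.02. At 2 µM 2 of the 20 processing genes had a negative log2 fold change, and Elac2 had 0.35 (edgeR adjusted p = 0.0304). Of 6 fibroblast markers 1, Pdgfrb, was lower at 10 µM (edgeR log2 fold change -0.60, adjusted p = 0.000248), and of the 4 tested markers of other cell types 0 were called. Whether these moved with the LSP features for a shared reason was not tested.

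The 5 genes whose log2 CPM followed ND6 most closely over the 8 libraries, by Pearson's r, were Scd2 (0.996), Dusp1 (0.994), Taf1 (0.993), Adm (0.990) and Tspan14 (0.985). These libraries share the 3 dose groups, so that any gene stepping down with dose ranks high, and the values are a description. ND6 fell further than any of them. At 10 µM against 0 µM the edgeR log2 fold change was -1.27 for Adm (adjusted p = 0.000101), -0.77 for Dusp1 (adjusted p = 0.000405) and -0.67 for Scd2 (adjusted p = 0.000768), all called, and -0.36 for Tspan14 (adjusted p = 0.0129) and -0.26 for Taf1 (adjusted p = 0.0254), which were not.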

How the data were processed

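RNA-Seq counts of 8 MEF libraries were used, grouped by the dose in their labels. The authors trimmed the reads with Trim Galore and cutadapt, aligned them to mm10 with STAR 2.5.2a and deposited whole-number counts of uniquely mapped fragments per gene from featureCounts, without normalization. The strand setting and the annotation are not given in the sources used here. Even the most alike libraries (0 µM, replicates 2 and 3) had a chi-square per degree of freedom of 3.80, more than sampling noise gives, and no library was merged with another.

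One model of dose over all 8 libraries was fitted by edgeR 4.0.16 in R 4.3.3 (TMM, filterByExpr, glmQLFit, glmQLFTest), and p-values were adjusted by Benjamini-Hochberg over 14296 genes. A call needed a fold change over 1.5 with an adjusted p below 0.01, and an SE is the log2 fold change divided by the square root of F. CPM are counts over TMM-scaled library sizes. Within-library log2 ratios took a pseudocount of 0.5 and were compared by exact permutation tests (two-sided). Members below the filter were described by counts, with a floor of 3 counts over the group. Other steps used Python 3.11.15 with scipy 1.17.1, numpy 2.4.6 and pandas 2.3.3. The tests were tried on simulated counts first.

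Every member was named, as were the mtDNA features beside them, each listed gene that was called, 11 set genes of the lists and the 5 genes most like ND6. Members, lists and rule were chosen with earlier results of these data known. The ratios of TRNP, TRNE, TRNQ and TRNA to ND6 were added after seeing the data. Alternatives were RLE and nuclear-only TMM scaling, total counts, 2 other count filters, DESeq2 1.42.0, calls without a fold limit, a fit to just the 2 groups in question, a replicate block, a pseudocount of 5, the tRNA pool without TRNQ, and each library left out. Sequences and positions came from GENCODE vM21 (GRCm38, the assembly of mm10), in which all 8 members were matched. Read coverage around the D-loop was not analysed here.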

Additional observations from a re-analysis of the deposited data

How the results depend on the processing

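With each library left out in turn, the number of members called ran from 0 to 1 at 2 µM, from 1 to 4 at 10 µM and from 1 to 2 between the doses. The calls that each such library decides are given with the members above. Apart from leaving out libraries, the counts of calls stayed within 1.5 times the values in the report under every alternative, the highest being 4 at 10 µM and 3 between the doses with no filter on low counts. Total counts in place of TMM moved the median of all genes by 0.215 at 10 µM against 0 µM and by 0.136 between the doses. The pooled LSP tRNAs at 10 µM then changed by -1.12. With TMM kept, the pool without TRNQ changed by -1.99 at 10 µM. With each library left out the pool of all 7 LSP tRNAs ran from -0.69 to -0.49 at 2 µM and from -1.48 to -1.21 at 10 µM.

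Between 2 and 10 µM, 2 uncalled changes turned in sign. TRNQ became 0.0029 with total counts and ranged from -0.40 to 0.042 with 1 library left out (above 0 without the first 10 µM library). TRNE became 0.030 with total counts and ranged from -0.81 to 0.28 with 1 library left out (0.28 without the second 2 µM and 0.26 without the second 10 µM library). The ratio of TRNA to ND6 at 10 µM turned from -1.62 to 0.064 with 5 added to each count, since TRNA then had 1 count per library, and it was -0.29 at 2 µM. The causes of the other shifts were not tested.

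Whether replicate numbers pair the libraries was not settled. The correlations of same-numbered deviations from the group means ran from -0.145 to 0.199 over 7 pairs. Between 0 and 2 µM they were 0.199, 0.085 and 0.161, and differently numbered pairs of those doses ran from -0.154 to 0.058. Pairs with 10 µM say little, since the deviations of its 2 libraries mirror each other. With the replicate block the calls were 1, 2 and 2, TRNA at 10 µM being lost, and the ND6 to ND5, ND6 to ND1 and ND6 to CYTB ratios changed by 1.01, -0.48 and 0.98 at 2 µM and by -0.06, -0.09 and -0.12 at 10 µM. The block changed no other call. For the members below the filter, depth limits what can be said, since they had at most 15 counts in a library, and with 2 libraries at 10 µM no exact permutation test against 0 µM can go below p = 0.2.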
